A study of Mus musculus with 96 samples.

Results

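Single HSC1 cells were compared by whether the platelet integrin gene Itga2b had a count in their library. The cells were selected on the raw count of Itga2b itself: 34 of the 92 cells used had at least 1 count and are called Itga2b-counted, and 58 had 0 counts and are called Itga2b-negative. The table holds 96 cells, of which cells 1, 2, 6 and 36 were left out by the rule that set the groups. The study also kept 92 of 96 cells after its quality control. The counted group was 37% of the 92 cells, with an exact binomial 95% interval of 27.1% to 47.7%.

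The study asked how cells sorted as hematopoietic stem cells differ from each other, and measured 1 RNA library per cell by Smart-seq2, a full-length protocol that amplifies by PCR and adds no molecular identifiers. Both groups came from the same population, the HSC1 gate on bone marrow of C57BL/6 mice aged 9 to 12 weeks. The gate takes cells without lineage markers that carry c-Kit, Sca-1 and CD150 and lack CD34, Flt3 and CD48. No allele and no treatment separates the groups. The labels do not say which animal a cell came from, so each group counts as 1 sample: values are given with their spread over cells, and no p-value or standard error is given. Intervals cover counting error only.

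Itga2b encodes integrin alpha IIb (CD41), which pairs with the beta 3 chain from Itgb3 to form the fibrinogen receptor of platelets. CD41 is among the first surface proteins of blood-forming cells in the embryo, and in adult marrow it marks the megakaryocyte line and part of the stem cell compartment. Through the receptor, inside-out signals by talin and kindlin-3 and outside-in signals by Src and Syk kinases link platelet activation to adhesion.

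The gene lies on the minus strand of chromosome 11, from 102453297 to 102470122 in GRCm38, and is protein-coding in the GENCODE M21 annotation, with no exon shared with another gene. In the counted cells the raw count ran from 1 to 1127 with a median of 75, and the normalized count (scaled by gene size factors) was 164 ± 237 (SD, n = 34 cells). The edge of the rule was thin: 5 cells had exactly 1 count, 4 had 5 to 9, and the other 25 had 12 or more. Those 25 cells held 99.4% of all normalized Itga2b counts. When every cell was thinned to the same 739093 gene counts, 33 of the 34 cells still had an Itga2b count.

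**Figure D1:**
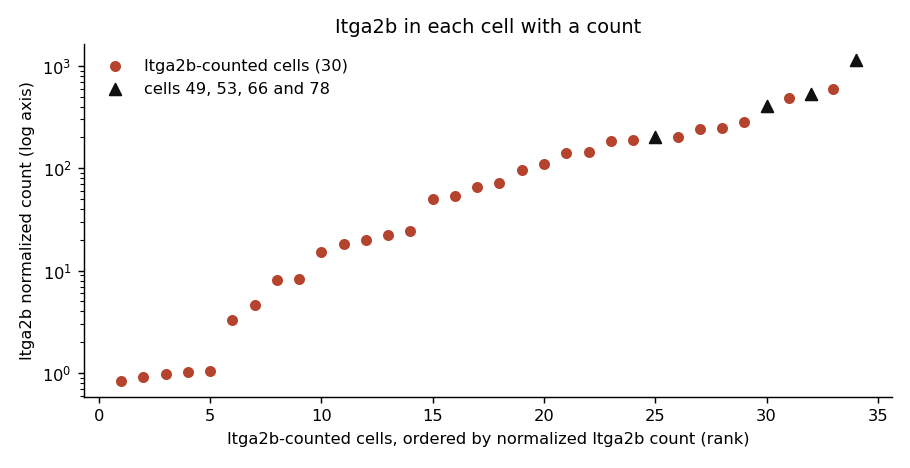
Normalized Itga2b count (log axis) of each of the 34 Itga2b-counted cells, ordered by that count; triangles are cells 49, 53, 66 and 78. The 5 cells with a single count lie near 1 and the highest cell, 78, at 1141.

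A set of 4 counted cells stands apart. Cells 49, 53, 66 and 78 had raw Itga2b counts of 427, 277, 520 and 1127 and held 40.8% of the normalized Itga2b of the whole group. They carried counts for 40 to 61 of the 62 listed G2/M genes, where no other cell of either group had more than 21. Each of them also had 6 of 8 megakaryocyte markers (Pf4, Gp1ba, Gp1bb, Gp5, Gp9, Itgb3, Ppbp and Treml1). The 4 were named singly and not by a fixed rule. Because all 4 fell on the counted side, results that rest on them are given with and without them.

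Depth was alike in both groups, while the number of detected genes and the spike-in share were not. Gene counts per cell had a median of 1596746 (range 739093 to 3242057) in counted and 1612970 (932558 to 3473151) in negative cells. The median number of detected genes was 6829 in counted and 6537 in negative cells, and at equal depth 6528 and 6192. The ERCC spike-ins, RNAs added in equal amount to each well, took a median of 0.841% of the counts in counted and 1.24% in negative cells. Ranges of both measures overlapped, and their part in the gene differences below was not tested.

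**Figure D2:**
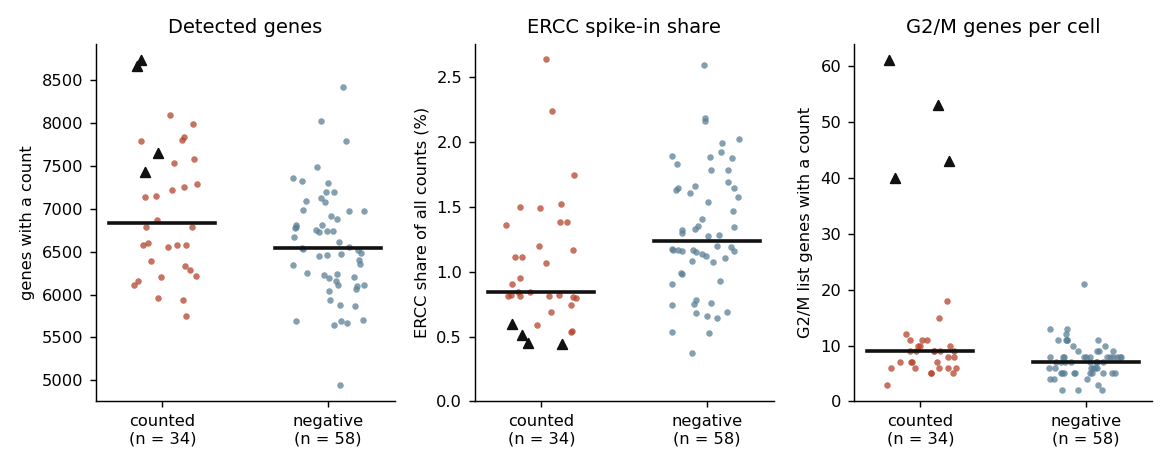
Detected genes, ERCC share of all counts (%) and the number of G2/M list genes with a count, for 34 counted and 58 negative cells; each point is a cell, lines are medians and triangles are cells 49, 53, 66 and 78. The triangles lie at 40 or more G2/M genes, and all other cells at 21 or fewer.

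Most of the gate's own markers had similar levels on both sides. Of 6 stem cell markers (Procr, Ly6a, Slamf1, Mecom, Hlf and Fgd5), all 34 counted cells and 57 of 58 negative cells had at least 3. Kit, the stem cell factor receptor, had 368 ± 279 normalized counts in counted and 374 ± 273 in negative cells, and Slamf1, which encodes CD150, had 171 ± 237 and 189 ± 243. Cd48 was at 0 in all 92 cells. RNA of Cd34, whose protein the gate excludes, was counted in 21 of 34 and 32 of 58 cells.

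Markers of other cell types were at 0 in most cells of both groups, and the median summed level of each marker set was 0. Cd3e, Elane, Mpo, Fcer1a and Hba-a1 had no count in any cell. No T cell marker of 3 was counted in a counted cell, and 2 negative cells had 1. Some cells did carry such RNA: at least 1 of 5 erythroid markers was counted in 12 counted and 14 negative cells, with sums of up to 309 and 778 normalized counts. All 4 cells apart were among the 12, with sums of 98.2 to 309. Without them 8 of 30 counted cells had such a marker, with sums of up to 170. Of 4 granulocyte markers, at least 1 was counted in 7 and 8 cells, with sums of up to 79.8 and 636, and a macrophage marker in 1 and 3 cells, with up to 233 and 34.3. Their part in the gene differences was not tested. Of the 2 endothelial markers, Cdh5 and Kdr, 8 counted cells and 3 negative cells had 1, and most of these were counts of Kdr, found in 7 and 3 cells. The summed endothelial level reached 147 normalized counts in the counted and 93.8 in the negative group.

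Across the transcriptome, 8764 genes had a mean of at least 20 normalized counts and a count in at least 10 cells. Of these, 234 genes were over 2-fold higher in Itga2b-counted cells, which is 2.67%, and 446 were over 2-fold lower, which is 5.09%. The share of cells with a count, taken at equal depth, gives a second view. By both rules together, over 2-fold and at least 20 percentage points, 69 genes (0.787%) were higher and 47 (0.536%) were lower. These percentages are the background against which each gene list is read. The median log2 ratio of all 8764 genes was -0.07, and the median gene was counted in 2.84 percentage points more of the counted cells.

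Leaving out the 4 cells gave 202 genes over 2-fold higher and 496 lower, and 64 and 50 by both rules. Of the 69 genes, 49 were again past both rules, and of the 47, 38. Scaling by the ERCC spike-ins instead of by genes moved the median of all genes from -0.07 to 0.35 and turned the 234 and 446 genes into 801 and 173. Relative to that median, a comparison added after the data were seen, the counts were 318 and 405.

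**Figure D3:**
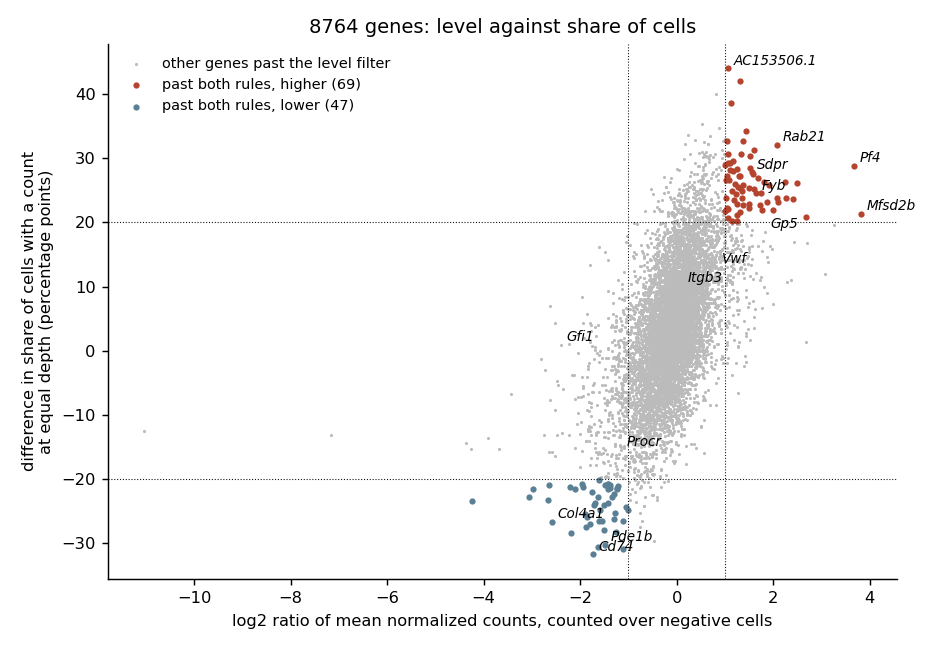
For each of the 8764 genes, the log2 ratio of mean normalized counts (counted over negative cells) against the difference in the share of cells with a count at equal depth (percentage points); dotted lines are the 2-fold and 20-point limits. Pf4, Mfsd2b, Sdpr and Fyb lie past both limits on the higher side, Cd74, Pde1b and Col4a1 on the lower side, and Itgb3 near the middle.

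The beta 3 partner of the CD41 protein and its other alpha chain had similar mean RNA levels in both groups. Itgb3, whose beta 3 chain is the only partner of integrin alpha IIb, had 56.1 ± 106 normalized counts in counted and 51.9 ± 140 in negative cells. It was counted in 14 of 34 (41.2%, exact interval 24.6% to 59.3%) and 20 of 58 cells (34.5%, 22.5% to 48.1%), and the highest values were 518 and 817. The 817 was in cell 18, which had the fewest detected genes (4945), and the next negative cell had 488. Itgav, the other alpha chain that pairs with beta 3, had 23 ± 51.8 and 22.8 ± 56.3.

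Of 25 listed integrin subunits 8 passed the level filter, and the median log2 ratio of these was 0.07, beside -0.07 for all genes. Itgb2, the beta chain of leukocyte integrins, was the one over 2-fold higher, beside 2.67% of all genes, and 0 were lower. It had 42.8 ± 85.1 normalized counts against 18 ± 48.7, a log2 ratio of 1.25, and was counted in 13 of 34 and 10 of 58 cells. Without the 4 cells its log2 ratio was 1.10. The widely expressed chains Itgb1, Itga4 and Itga6 had log2 ratios of 0.20, -0.06 and 0.28.

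Among genes of integrin activation and signaling, 26 of 33 passed the filter, with a median of 0.07. Of these 2 were over 2-fold higher and 0 lower, beside 2.67% and 5.09% of all genes. Fyb encodes ADAP, an adaptor that couples receptor signals to integrin activation in T cells and platelets. Its normalized count ran from 0 through a median of 80.4 to 617 in counted cells, and from 0 through a median of 0 to 243 in negative cells. The ranges overlapped, and the group mean was 3.14-fold higher in counted cells, with a count in 25 of 34 and 27 of 58 cells. The log2 ratio of Fyb was 1.65, and 1.33 without the 4 cells.

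Other members of the pathway showed smaller differences. Syk, the kinase that acts downstream of the platelet integrin, had a log2 ratio of 1.12, which became 0.75 without the 4 cells. Skap2, an adaptor that binds ADAP, had 329 ± 262 normalized counts against 197 ± 164, a log2 ratio of 0.74 with and without the 4 cells. Talin (Tln1) and kindlin-3 (Fermt3), which open the receptor from inside, had log2 ratios of 0.11 and 0.21. Rap1b, the small GTPase that recruits talin, had 0.42 with all cells and -0.20 without the 4.

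The megakaryocyte and platelet genes divided into those that rested on the 4 cells and those that did not. Of 41 listed genes 26 passed the filter; 6 were over 2-fold higher (Pf4, Mfsd2b, Gp5, Sdpr, Plek and Treml1) and 1 lower (Thbs1), beside 2.67% and 5.09% of all genes, and the median log2 ratio was 0.24. Without the 4 cells 24 passed, 1 was over 2-fold higher (Sdpr), and the median was 0.04. Mfsd2b and Gp5 left this count because their means over the other 88 cells, 11.5 and 19.2, were below the filter, and not because their ratios fell under 2-fold. A cell with at least 3 of the 8 megakaryocyte markers was seen 16 times among 34 counted cells (47.1%, exact interval 29.8% to 64.9%) and 9 times among 58 negative cells (15.5%, 7.35% to 27.4%). At equal depth the numbers were 15 and 7, and without the 4 cells 12 of 30.

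Pf4, the platelet chemokine stored in alpha granules, had nearly all of its counted-group level in the 4 cells. Its normalized count was 6885 in cell 78, 4768 in cell 66, 2233 in cell 49 and 138 in cell 53, and the next counted cell had 96.8. In negative cells the highest value was 339. These 4 cells held 95.1% of the Pf4 of the counted group, whose median was 1.07, while the median of the negative cells was 0. The group ratio of 12.8-fold (log2 3.68) therefore turned to -0.49 without the 4 cells. The share of cells with a Pf4 count was 18 of 34 against 16 of 58, and 14 of 30 without the 4.

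Itga2b and Pf4 were both highest in cell 78, and their promoters are shown for that reason. Each sequence is the RefSeq window of 300 bases (250 before and 50 after RefSeq's start of the gene) on the gene's own strand in GRCm38.p6. RefSeq starts Itga2b at 102469883, which is 239 bases inside the GENCODE gene, so most of its window lies within the GENCODE model, while both annotations start Pf4 at 90772435. Capitals mark a GATA motif (AGATAA) or an Ets motif (AGGAAG) on either strand, and no match overlaps another.
Itga2b promoter, chr11:102469834-102470133, minus strand: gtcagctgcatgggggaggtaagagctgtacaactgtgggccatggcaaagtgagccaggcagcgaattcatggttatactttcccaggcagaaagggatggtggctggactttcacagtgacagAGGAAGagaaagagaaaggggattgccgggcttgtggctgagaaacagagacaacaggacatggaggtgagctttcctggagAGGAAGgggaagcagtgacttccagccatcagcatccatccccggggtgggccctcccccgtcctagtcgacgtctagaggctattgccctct
Pf4 promoter, chr5:90772185-90772484, plus strand: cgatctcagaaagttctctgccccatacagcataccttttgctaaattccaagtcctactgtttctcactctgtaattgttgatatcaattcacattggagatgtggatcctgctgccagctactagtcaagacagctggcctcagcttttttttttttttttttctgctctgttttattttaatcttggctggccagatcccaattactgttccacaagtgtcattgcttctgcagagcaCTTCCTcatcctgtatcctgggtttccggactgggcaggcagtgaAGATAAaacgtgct
The Itga2b window held 2 Ets and 0 GATA matches, and the Pf4 window 1 of each. GATA and Ets factors both act on megakaryocyte genes. Of all 32851 RefSeq promoter windows of this length, 11.2% held the GATA and 35.4% the Ets motif, so a match is a description of the letters and no more.

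Mfsd2b, a sphingosine-1-phosphate transporter of platelets and red cells, was the gene whose ranks were most like those of Itga2b. Its Spearman's rho with Itga2b was 0.44 over the 92 cells, and 0.49 within the 34 counted cells. Without the 4 cells these values were 0.30 and 0.27. It was counted in 11 of 34 and 3 of 58 cells, with 84.3 ± 232 normalized counts against 5.98 ± 33.3. The 4 cells held 76.8% of the counted group's sum, and without them the log2 ratio fell from 3.82 to 1.89, at means of 22.2 and 5.98. Computed within cells below and above the median number of detected genes and then averaged, it was -0.50. That average joins opposite directions. Below the median, negative cell 25 had 121 normalized counts, and counted cells 10 and 37 had 0.65 and 0.97. Above it, counted cells reached 1018, and negative cell 64 had 225.

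Genes of the GPIb-IX-V complex, through which platelets bind von Willebrand factor, were seen in both groups, to unlike degrees. Gp1bb, the beta chain of GPIb, was counted in 7 of 34 cells with up to 454 normalized counts, and in 2 of 58 negative cells with at most 63.8. All 4 of the cells apart were among the 7, and they held 71% of the sum. Counted cells 21 and 65, outside those 4, had 161 and 356. The exons of Gp1bb overlap those of Sept5 and its reads carry no strand, so its level is uncertain.

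Gp5, another chain of that complex, was counted in 11 of 34 and 9 of 58 cells, with a log2 ratio of 1.83 and 1.38 without the 4 cells. Gp9 was counted in 21 and 32 cells and had 142 ± 188 normalized counts against 79.1 ± 112, a log2 ratio of 0.85, and 0.50 without the 4. The third chain, Gp1ba, was counted in 5 and 3 cells. Vwf, the ligand of the complex, had a log2 ratio of 0.82 with and 0.72 without the 4 cells. Its normalized count ran from 0 through a median of 153 to 1522 in counted cells, and from 0 through 42.9 to 1332 in negative cells, so the groups overlapped over nearly the whole range.

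Sdpr, which encodes the caveolae protein cavin-2 and is abundant in platelets, differed outside the 4 cells as well. Its normalized count ran from 0 through a median of 190 to 1413 in counted cells, and from 0 through a median of 0 to 1168 in negative cells. It was counted in 22 of 34 cells (64.7%, exact interval 46.5% to 80.3%) and in 21 of 58 (36.2%, 24% to 49.9%). The ratio was 2.93-fold (log2 1.55), and the log2 ratio without the 4 cells was 1.28. P2rx1, an ATP-gated channel of platelets, was counted in 25 of 34 and 29 of 58 cells, with log2 ratios of 0.70 and 0.71.

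Other platelet genes were level or lower. Selp, the adhesion molecule P-selectin, was counted in 17 of 34 and 17 of 58 cells but had similar means of 56.5 ± 97.4 and 47.5 ± 121. Cd63 and Tbxas1, a granule membrane protein and thromboxane synthase, had log2 ratios of -0.44 and -0.49. Thbs1, the platelet and matrix protein thrombospondin-1, had a log2 ratio of -1.79, with counts in 9 of 34 and 15 of 58 cells and a highest value of 601 in a negative cell.

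**Figure D4:**
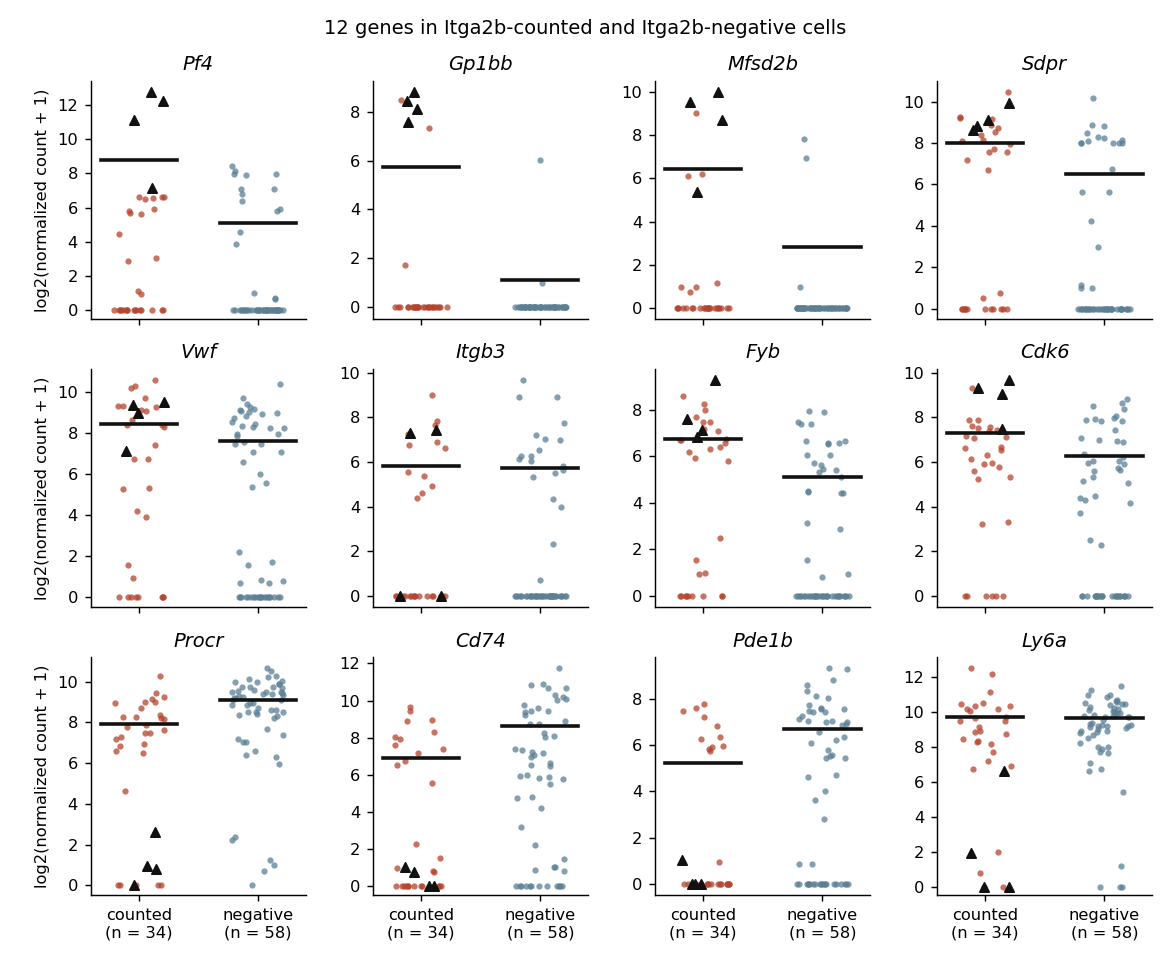
log2(normalized count + 1) of 12 genes in each of 34 counted and 58 negative cells; each point is a cell, lines mark the mean normalized count on the same scale, and triangles are cells 49, 53, 66 and 78. Triangles take the 3 highest values of Pf4 and the highest of Gp1bb, while cell 53, at 138 normalized counts of Pf4, lies among the other cells. All 4 lie between 0 and 5.09 normalized counts, before the log, for Procr, Cd74 and Pde1b. Itgb3 and Ly6a have similar means in both groups.

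Among regulators of the megakaryocyte and erythroid lines, none that passed the level filter was past 2-fold. Of 25 listed genes 22 passed the level filter, 0 were over 2-fold higher or lower, and the median log2 ratio was -0.04. Without the filter 2 of the 25 were over 2-fold higher and 0 lower. With ERCC scaling 1 of 22 past the filter was higher and 0 lower. Gata1, the main factor of both lines, fell below the filter: it was counted in 5 of 34 and 4 of 58 cells. The 5 values were 274, 264, 186, 135 and 115 normalized counts, in cells 53, 49, 66, 12 and 78, so that all but cell 12 were of the 4. In the 4 negative cells the highest was 56.5 and the next 1.04.

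Gfi1b, which is needed for platelet and red cell formation, had 310 ± 391 normalized counts against 215 ± 373, a log2 ratio of 0.52 and 0.38 without the 4 cells. Its relative Gfi1 was outside that list. Gfi1 had 8.36 ± 31.6 against 43.9 ± 197 normalized counts, a log2 ratio of -2.39, and a single negative cell reached 1423. Gata2, Nfe2 and Lmo2, expressed in every cell, had log2 ratios of -0.16, -0.35 and -0.41.

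Of 26 erythroid genes 6 passed the filter, none past 2-fold, with a median log2 ratio of 0.19 that was -0.05 without the 4 cells. Hemgn, a nuclear protein of blood progenitors, had a log2 ratio of 0.76 and was counted in 20 of 34 and 18 of 58 cells. Bpgm, which makes 2,3-bisphosphoglycerate in red cells, had 0.70. Klf1, the erythroid factor, was counted in 4 counted cells and 1 negative cell.

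Mitotic genes gave the largest list difference, and it lay in the 4 cells. These cells stand apart by the same genes, so a fall of the list without them is built in. Of 62 G2/M genes 19 passed the filter, 12 were over 2-fold higher, where 2.67% of all genes were, and 1 lower, and the median log2 ratio was 1.14. Without the 4 cells 13 passed, 1 was higher and 1 lower, and the median was -0.22. A counted cell had a median of 9 G2/M genes with a count and a negative cell 7, and the 30 other counted cells had 8.5.

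Mki67, the proliferation marker Ki-67, was counted in 7 of 34 cells and 1 of 58. The 4 cells held 97.5% of its level in the counted group, and the other 3 cells had raw counts of 12, 5 and 20. The negative cell had 2 raw counts. Ccnb1, the mitotic cyclin B1, had a log2 ratio of 2.69, and 1.28 without the 4 cells. Ncaph, a condensin subunit, was counted in 7 counted cells, of which 3 were among the 4. It was counted in 0 of 58 negative cells, for which the exact interval reaches 6.16%.

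G1/S genes differed less. Of 50 listed genes 29 passed the filter, with a median of 0.50. Of these 6 were over 2-fold higher and 0 lower, beside 2.67% and 5.09% of all genes. Without the 4 cells 0 were higher, 2 lower, and the median was 0.12. Tyms, which encodes thymidylate synthase, had a log2 ratio of 1.63. Cdk6, the kinase that moves stem cells out of quiescence, had 157 ± 200 normalized counts against 76.2 ± 115. It was counted in 28 of 34 and 34 of 58 cells, and its log2 ratio of 1.04 became 0.48 without the 4 cells. Cdkn1a, which encodes the inhibitor p21, was counted in 1 of 34 cells, with 1 raw count, and in 9 of 58.

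**Figure D5:**
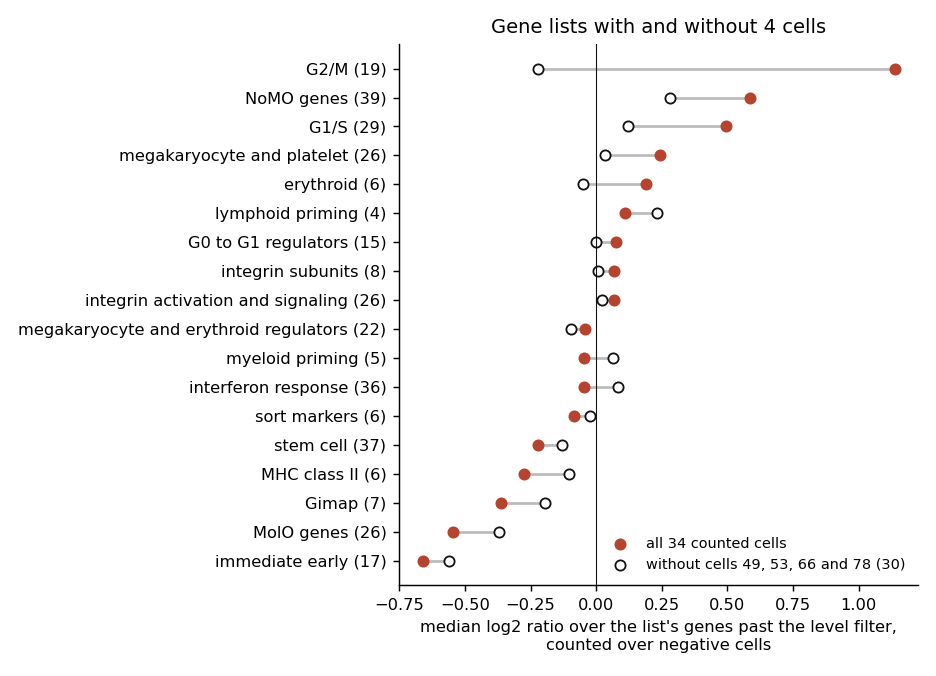
Median log2 ratio (counted over negative cells) of each gene list, over its genes past the level filter (number in brackets), with all 34 counted cells (filled) and without cells 49, 53, 66 and 78 (open). The G2/M list moves from 1.14 to -0.22, the immediate early list from -0.66 to -0.56, and the MolO list from -0.54 to -0.37.

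Stem cell genes leaned to lower levels in counted cells, led by Procr. Of 40 listed genes 37 passed the filter, and 8 had a ratio above 0. Over 2-fold, 0 were higher and 4 lower (Procr, Emcn, Rarb and Nr4a1), beside 5.09% of all genes lower. Without the 4 cells 1 was over 2-fold lower. With ERCC scaling it was also 1, and the count over all genes fell from 446 to 173. The median log2 ratio was -0.22, or -0.13 without the 4 cells. With ERCC scaling the median was 0.00, beside 0.35 for all genes. Emcn, Rarb and Nr4a1 are named here because they passed the fold rule, with log2 ratios of -1.08, -1.43 and -1.08.

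Procr encodes EPCR, the endothelial protein C receptor that marks long-term stem cells, and its ranks were the most opposed to Itga2b of all genes, with a rho of -0.45 over 92 cells and -0.38 without the 4. Its normalized count ran from 0 through a median of 177 to 1222 in counted cells, and from 0 through a median of 523 to 1611 in negative cells. It was at 0 in 6 counted cells and 1 negative cell. The ranges overlapped, and the mean was 2.22-fold lower in counted cells (log2 ratio -1.15). Without the 4 cells it was -0.97, and with counted cells of 10 or more Itga2b counts -1.60. With ERCC scaling the log2 ratio of Procr was -0.99, beside a median of 0.35 for all genes.

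The level of Itga2b within the counted group went the same way for several of these genes. Over the 34 counted cells, which share the scaling and depth differences of their libraries, Spearman's rho with Itga2b was -0.38 for Procr, -0.54 for Ifitm1 and -0.57 for Cdkn1c. Without the 4 cells it was -0.23 for Procr, -0.40 for Ifitm1 and -0.53 for Cdkn1c. Cdkn1c encodes p57, a cell cycle inhibitor of quiescent stem cells. Its means hardly differed between the groups, at 167 ± 248 and 182 ± 215 normalized counts. Against negative cells, the counted cells with 10 or more Itga2b counts had a Cdkn1c log2 ratio of -1.21.

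The MolO and NoMO gene lists come from the study, which sorted these same cells with a classifier that uses Itga2b, so their direction is built in and is not independent evidence. Of 26 MolO genes past the filter 4 were over 2-fold lower (Procr, Pde1b, Ramp2 and Fads3), beside 5.09% of all genes, and 0 higher. Without the 4 cells 3 were lower. The median was -0.54, or -0.28 with ERCC scaling, beside -0.07 and 0.35 for all genes. Of 39 NoMO genes 16 were over 2-fold higher, beside 2.67% of all genes, and 0 lower, with a median of 0.59. Without the 4 cells 32 passed the filter, 3 were higher and 1 lower, and the median was 0.28. Pde1b, a phosphodiesterase, was counted in 13 of 34 and 38 of 58 cells, with a log2 ratio of -1.49.

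Ifitm1, an interferon-induced membrane protein, was counted in every cell, with 2586 ± 1540 normalized counts against 3904 ± 1942. Mllt3, a regulator of stem cell maintenance, and Ltb, the cytokine lymphotoxin beta, had log2 ratios of -0.86 and -0.88. Ly6a, which encodes Sca-1, had means of 833 ± 1230 and 818 ± 634 but medians of 442 and 645, and counted cells 3 and 15 reached 5744 and 4511. With the highest cell of each group left out its log2 ratio was -0.19. The lowest Ly6a values included cells of the 4 apart, and without these its log2 ratio was 0.20.

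Cd74, the invariant chain of MHC class II, was past both rules on the lower side. Its normalized count ran from 0 through a median of 0.86 to 795 in counted cells, and from 0 through a median of 89.3 to 3412 in negative cells. It was counted in 20 of 34 and 46 of 58 cells, with a log2 ratio of -1.74, and -1.56 without the 4 cells. With ERCC scaling it was -1.31, beside a median of 0.35 for all genes. The class II chains themselves did not share this. H2-Aa, H2-Ab1 and H2-Eb1 had log2 ratios of -0.30, 0.29 and -0.25. Of the whole MHC class II list 6 genes passed the filter and 1 was over 2-fold lower, beside 5.09% of all genes.

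Other genes past both rules on the lower side had mixed roles. Rora, a nuclear receptor, was counted in 12 of 34 and 37 of 58 cells, with a log2 ratio of -1.12, and -0.94 without the 4 cells. Col4a1, a chain of basement membrane collagen, was counted in 5 of 34 cells (14.7%, exact interval 4.95% to 31.1%) and 25 of 58 (43.1%, 30.2% to 56.8%), with a mean 5.99-fold lower. Cryz, which encodes a quinone oxidoreductase, was counted in 5 and 26 cells. The exons of Col4a1 overlap those of Col4a2 and the exons of Cryz those of Tyw3, so reads of these pairs may be shared.

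On the higher side, the largest share difference among genes past both rules was that of the unnamed gene AC153506.1, counted in 25 of 34 cells (73.5%, exact interval 55.6% to 87.1%) and 14 of 58 (24.1%, 13.9% to 37.2%). Its level did not follow Itga2b within the counted cells, where rho was -0.17, and the log2 ratio was 1.07. Rab21, a small GTPase that directs integrin traffic through endosomes, was counted in 16 of 34 and 7 of 58 cells, with a log2 ratio of 2.08, and 2.16 without the 4. Mdc1, a mediator of the DNA damage checkpoint, was counted in 21 and 19 cells. Tdp1, which repairs topoisomerase I lesions, followed Itga2b within the counted cells as well, with a rho of 0.43, or 0.32 without the 4 cells, and a log2 ratio of 1.60. Elovl6 and Soat1, enzymes of fatty acid elongation and cholesterol ester formation, had log2 ratios of 1.04 and 1.33.

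After Mfsd2b, the genes most like Itga2b over the 92 cells were Tdp1, Fyb, AC153506.1, Hmgb3, Eya3, Nipal3, Rpl28, Pole2 and Snx19, with rho from 0.41 to 0.37. After Procr, the most opposed were Ifitm1, Rab38, Vat1 and Syf2, with rho from -0.39 to -0.34. Rank correlations with Itga2b rest on 58 cells tied at 0. Rpl28, a ribosomal protein counted in every cell, shows how small such a difference can be, with 1038 ± 242 normalized counts against 867 ± 218.

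Interferon genes showed no common direction. Of 41 listed genes 36 passed the filter, and the median log2 ratio was -0.05. Over 2-fold, 3 were higher (Oas2, Irf7 and Isg15) and 1 lower (Gbp3), beside 2.67% and 5.09% of all genes. Oas2, an antiviral oligoadenylate synthetase, was counted in 11 of 34 and 6 of 58 cells, with a highest value of 1117 in a counted cell. None of its level lay in the 4 cells, and its log2 ratio was 2.08. Gbp3, a guanylate-binding protein, was counted in 14 and 35 cells, with a log2 ratio of -1.23.

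Immediate early genes had the lowest median of the lists, at -0.66, and -0.56 without the 4 cells. With ERCC scaling it was -0.27, beside 0.35 for all genes. Of 17 past the filter 0 were over 2-fold higher and 2 lower (Ier3 and Nr4a1), beside 5.09% of all genes lower. Without the 4 cells 1 was over 2-fold lower. With ERCC scaling 0 were, and the count over all genes fell from 446 to 173. At equal depth 9 of the 17 were counted in a larger share of counted cells and 8 in a smaller share. Fos, a subunit of the AP-1 factor, had 683 ± 1405 normalized counts in counted and 1080 ± 2221 in negative cells, a difference well inside the spread over cells, and Jun had a log2 ratio of -0.07. Of 7 Gimap genes, a family of lymphocyte GTPases, 1 was over 2-fold lower, beside 5.09% of all genes. That was Gimap3, with 7.60 ± 21.3 against 29.1 ± 67.3 and counts in 17 of 34 and 33 of 58 cells.

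Lineage priming genes were few. Of 23 lymphoid genes 4 passed the filter with none past 2-fold, and Cd27 had a log2 ratio of 0.19. Of 22 myeloid genes 5 passed. Csf3r, the receptor for G-CSF, was the one over 2-fold higher, beside 2.67% of all genes. It was counted in 20 of 34 and 26 of 58 cells, with a log2 ratio of 1.14. None of its counts came from the 4 cells. Sfpi1, which encodes PU.1, had a log2 ratio of -0.74.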

How the data were processed

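Per the submitters' notes, reads were aligned to mm10 with STAR 2.3.0, handled with SAMtools 0.1.18 and counted with HTSeq 0.6.1. The deposited values are the authors' raw counts per gene, with no normalization and no molecular identifiers. The table holds 38406 genes and 92 ERCC spike-ins. HTSeq counts of this protocol carry no strand, so genes with shared exons can exchange reads. Cells 1, 2, 6 and 36 were left out. Counts were divided by median-of-ratios size factors over the 602 genes (for the alternative, 8 spike-ins) counted in all 92 cells. Gene counts ran from 739093 to 3473151 per cell, and shares were taken after thinning each cell to 739093.

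The gene members, lists and tests were chosen with earlier results of these data known. Named genes were Itga2b, up to 20 past both rules in each direction, the 10 highest and 5 lowest rho, in each of 23 lists up to 6 members by mean and 6 by share difference, and a short set of single genes. Emcn, Rarb, Nr4a1, Ramp2, Fads3, Plek, Tyms, Irf7, Isg15 and Ier3 fell outside the rule and were chosen after their values were seen. Of 263 named genes 253 had a position in GENCODE M21. Both groups are 1 sample of cells, so nothing was tested. A count of 0 was given a floor of 3 counts over the group. The ratio was tested on simulated data. Alternatives were ERCC and total-count scaling, thinned counts, other level filters, leaving out cells, at least 10 Itga2b counts, ratios within cells below and above the median number of detected genes, each gene's highest cell left out, and a difference of mean log2(normalized count + 1). Tools were scipy 1.17.1, numpy 2.4.6, matplotlib 3.10.9 and pandas 2.3.3, run in Python 3.11.15.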

Additional observations from a re-analysis of the deposited data

Results flagged for a closer look

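Pf4 had 289 raw counts in cell 1, which is one of the 4 cells left out and belongs to neither group. That cell had 0 Itga2b counts. It was singled out because it lies outside the compared cells, and the value enters no comparison.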

How the results depend on the processing

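No paired analysis was possible because the cells are single libraries of 1 population and the groups share no replicate numbers. Of all recomputed values, 4541 stayed the same in direction and size, 221 moved and 7 reversed, with 1.5-fold as the limit for a move. Among the 4541 were 2056 percentages. A share of cells with a count does not use size factors, so scaling cannot change it. Of the log2 ratios, 2246 stayed the same, 154 moved and 5 reversed.

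The count of genes over 2-fold higher (234) was 801 with ERCC size factors, 68 with thinned counts, 12 at a mean of at least 100, 4103 with no filter on low values and 901 by the difference of mean log2 values. The count over 2-fold lower (446) was 173, 183, 32 and 3782 under the first 4 of these. By both rules, the higher count (69) was 159 with ERCC size factors, 26 with thinned counts, 5 at a mean of at least 100, 133 with at least 10 Itga2b counts and 326 by mean log2 values. The lower count (47) was 29 with ERCC size factors, 8 at a mean of at least 100, 85 without the cells with an Mki67 count and 72 by mean log2 values. A lower filter admits genes counted in a few cells, and thinning leaves fewer genes past the filter, 6307.

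With ERCC size factors the list medians were 1.24 for erythroid, 1.94 for G2/M and 1.41 for NoMO genes, beside 0.35 for all genes. The G2/M median was 0.015 at a mean of at least 100, 2.15 with no filter, 0.39 within cells below and above the median number of detected genes, and reversed to -0.22 without the 4 cells and -0.21 without the cells with an Mki67 count. Both of these settings leave out the 4 cells, which carry the most G2/M genes, so a fall is built in. Without the cells with an Mki67 count the median for G1/S was -0.089. The NoMO median was 1.90 with no filter and 1.24 by mean log2 values.

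Among genes, Pf4 reversed to -0.49 without the 4 cells and to -0.69 without the cells with an Mki67 count. Treml1 reversed to -0.24 without the cells with an Mki67 count. Averaged over the same split by detected genes, Mfsd2b was -0.50 and Treml1 -2.32. For Mfsd2b that average joins opposite directions below and above the median, so it is no reversal in both parts. The cause of these changes was not tested beyond the cells named. Single-cell counts without molecular identifiers limit low genes most. By the exact interval, a gene at 0 in 58 cells allows a share of up to 6.16%, and in 34 cells up to 10.3%.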
